A study of Mus musculus with 18 samples.

Results

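Distal colon of Il10 knockout mice was compared with wild-type distal colon at the youngest age sampled, week 6. The comparison used 6 of the 18 libraries of the series. They were the 3 labelled Il10KO W6 and the 3 labelled WT W6, each from a different mouse, and the choice rested on these labels alone. The study sequenced polyA RNA from distal colon biopsies of BALB/c mice, with WT mice at week 6 and Il10KO mice at weeks 6, 8, 10, 12 and 14. The Il10KO group consisted of BALB/c mice without a functional Il10 gene, with no treatment named. The WT group consisted of BALB/c mice of the same age with an intact Il10 gene. The construction of the knockout allele and the sex of the mice are not given in the sources used here. All 3 WT mice came from cage G, whereas the Il10KO mice came from cages A, B and F, so cage and genotype cannot be told apart.

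Interleukin 10 is a cytokine of macrophages, T cells and B cells that restrains inflammatory responses to intestinal microbes. It signals through the receptor chains Il10ra and Il10rb to the transcription factor Stat3. Mice without it are known to develop colitis in the presence of gut bacteria, with a severity that depends on strain and microbiota. The colon lining is renewed from dividing crypt cells, and lamina propria plasma cells secrete IgA across it.

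Gene-level estimated counts summed to between 27994123 and 28910893 per library in Il10KO colon and to between 30016242 and 33644962 in WT colon. RNA integrity numbers were 8.8 to 9 in Il10KO and 8.8 to 9.2 in WT. Lipocalin, a marker of gut inflammation, was labelled at 4.72, 2.27 and 2.31 ng/g in the Il10KO mice and at 0.592 ng/g in WT replicate 1, the one WT mouse with a value. In the Il10KO mice of the later ages it was 102 ng/g or more. Pearson correlations of log expression were 0.984 to 0.986 between Il10KO libraries, 0.975 to 0.984 between an Il10KO and a WT library, and 0.981 to 0.987 between WT libraries. The tissue label was borne out by the colonocyte marker Car1, at 1350, 1271 and 1024 CPM in Il10KO and 1478, 855 and 1448 CPM in WT. CPM is the count scaled to a common library size, here after adjustment by the trimmed mean of M values (TMM).

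Transcripts of Il10 were at 0 estimated counts in all 3 Il10KO libraries, and at 1, 0 and 3 in the WT libraries. A count of 0 allows up to 3 counts, or 0.103 to 0.107 CPM in these Il10KO libraries, for counting error only. Il10 was therefore at or near the limit of detection in both groups, and its level does not check the genotype labels. Lcn2, the gene encoding lipocalin 2, was at 2.11, 0.572 and 0.848 CPM in Il10KO and 1.42, 0.674 and 0.95 CPM in WT. The groups overlapped, with a log2 fold change of 0.22 ± 0.49 (SE; edgeR adjusted p = 0.843). The Y-linked gene Kdm5d had 17.1, 10.8 and 12.8 estimated counts in Il10KO and 17.1, 11.7 and 16.4 in WT. Uty, also Y-linked, had 10.2, 5.05 and 21.3 estimated counts in Il10KO and 9.0, 23.1 and 9.0 in WT. Eif2s3y, likewise Y-linked, had 0, 0 and 1 in Il10KO and 0, 1 and 6 in WT. The Y-linked gene Ddx3y was at 0 counts in all 6 libraries. Xist was not among the matched transcripts, and these low counts were not used to assign a sex.

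Of 15376 genes tested, 51 rose and 14 fell in Il10KO colon (edgeR quasi-likelihood test, Benjamini-Hochberg adjusted p under 0.05 over all genes tested). These are 0.332% and 0.0911% of the genes tested, and 0.423% together. In all 65 genes the 3 Il10KO libraries lay outside the range of the 3 WT libraries. Groups without overlap also occurred in 13.7% of all genes upward and 12.5% downward. The change was at least 2-fold in 27 of the genes that rose and in 4 of those that fell. At an unadjusted p under 0.05, 1621 genes (10.5%) had higher and 1449 (9.42%) had lower values in Il10KO. The count of 65 was 0 when all 18 libraries shared 1 estimate of spread, with 394 genes at an unadjusted p under 0.05, and 950 by DESeq2 on the same 6 libraries. It became 204, 13 and 8 without Il10KO replicate 1, 2 or 3, and 3, 115 and 0 without WT replicate 1, 2 or 3. All 65 genes kept their direction in each of the 22 alternative settings in which they were tested.

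Genes of G2 phase and mitosis had higher values in Il10KO colon throughout. Of 35 genes of a list for G2 phase and mitosis, all 35 were tested, all had positive log2 fold changes and all reached an unadjusted p under 0.05, against 10.5% of all genes tested. The adjusted test called 6 of them, Ccnb1, Cdk1, Ccna2, Ube2c, Mad2l1 and Ect2. This list and the others below were made with earlier results of these data known, so their counts describe and do not test a theme. The median log2 fold change of the list was 0.92, against 0.00 over all genes tested. It lay between 0.75 and 1.09 when any 1 library was left out, and all 35 then kept an unadjusted p under 0.05. The list's summed level was 1051, 1366 and 1663 CPM in Il10KO and 648, 752 and 821 CPM in WT, so the groups did not overlap.

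Ccnb1, the mitotic cyclin that activates the kinase Cdk1, was at 34.9, 43.2 and 55.5 CPM in Il10KO and 15.3, 20.4 and 21.4 CPM in WT. Its log2 fold change was 1.22 ± 0.18 (SE; edgeR adjusted p = 0.0394). Every Il10KO library lay above every WT library. Cdk1 itself had 31, 37.8 and 44.1 CPM in Il10KO and 18.9, 20.4 and 21.4 CPM in WT, with a log2 fold change of 0.90 ± 0.14. Ube2c, a ubiquitin-conjugating enzyme that works with the anaphase-promoting complex, had 42.3, 50.6 and 67.8 CPM in Il10KO and 20.1, 24.6 and 25 CPM in WT, a log2 fold change of 1.20 ± 0.17. Both rose at an edgeR adjusted p of 0.0394. Ccna2, the cyclin of S and G2 phase, rose by 1.14 ± 0.17, the spindle checkpoint gene Mad2l1 by 0.85 ± 0.12 and the cytokinesis factor Ect2 by 1.11 ± 0.18 on the log2 scale. Mki67, the gene of the proliferation antigen Ki-67, had 97.2, 142 and 166 CPM in Il10KO and 62.4, 78.5 and 91.0 CPM in WT. The Ki-67 transcript did not pass the adjusted test (log2 fold change 0.81 ± 0.20, edgeR adjusted p = 0.0882). The 6 called genes each kept their call when Il10KO replicate 1 or WT replicate 2 was left out, and none kept it when one of the other 4 libraries was left out.

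Promoter sequences of the 4 list members with the smallest p are shown because G2/M genes as a class are known to carry 2 short elements near their start sites. These are the cell cycle genes homology region, TTTGAA, and the CCAAT box, CCAAT, both searched on either strand and set in capitals. Each window runs from 250 bases before to 50 bases after the RefSeq start of the gene on GRCm38.p6, in the direction of transcription. The windows are chr2:164769679-164769978 on the plus strand for Ube2c, chr6:66534971-66535270 on the plus strand for Mad2l1, chr13:100786437-100786736 on the minus strand for Ccnb1 and chr10:69352863-69353162 on the minus strand for Cdk1.
Ube2c: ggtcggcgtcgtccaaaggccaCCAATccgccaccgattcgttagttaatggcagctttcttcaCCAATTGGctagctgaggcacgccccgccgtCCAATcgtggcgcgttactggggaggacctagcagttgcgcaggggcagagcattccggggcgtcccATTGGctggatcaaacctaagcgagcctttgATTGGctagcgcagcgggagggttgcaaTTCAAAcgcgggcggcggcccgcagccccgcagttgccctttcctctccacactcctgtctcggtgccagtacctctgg
Mad2l1: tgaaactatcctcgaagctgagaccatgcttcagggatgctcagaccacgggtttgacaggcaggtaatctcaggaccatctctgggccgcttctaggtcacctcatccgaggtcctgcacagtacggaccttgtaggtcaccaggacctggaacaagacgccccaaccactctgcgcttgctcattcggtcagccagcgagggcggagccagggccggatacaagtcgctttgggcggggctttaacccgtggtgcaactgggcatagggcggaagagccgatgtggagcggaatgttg
Ccnb1: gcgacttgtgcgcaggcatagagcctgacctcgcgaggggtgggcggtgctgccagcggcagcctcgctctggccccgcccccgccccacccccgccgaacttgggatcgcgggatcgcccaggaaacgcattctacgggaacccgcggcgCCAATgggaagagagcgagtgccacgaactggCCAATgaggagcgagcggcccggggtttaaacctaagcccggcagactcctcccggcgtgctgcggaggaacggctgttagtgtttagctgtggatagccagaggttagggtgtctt
Cdk1: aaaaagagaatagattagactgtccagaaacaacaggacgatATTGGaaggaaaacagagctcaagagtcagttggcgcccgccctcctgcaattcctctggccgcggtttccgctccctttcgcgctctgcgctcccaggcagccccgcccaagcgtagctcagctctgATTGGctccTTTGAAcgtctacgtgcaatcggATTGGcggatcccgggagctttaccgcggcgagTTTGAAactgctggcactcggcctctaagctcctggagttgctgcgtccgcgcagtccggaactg
The Ube2c window held 1 TTTGAA match and 6 CCAAT matches, of which a pair overlap in a single run of capitals, and the Cdk1 window held 2 and 3. The Ccnb1 window held 2 CCAAT matches and no TTTGAA match, and the Mad2l1 window held neither string. GENCODE M21 starts Mad2l1 at chr6:66535390, past the end of its window, so bases at that start were not searched. Promoter windows were found for 29 of the 35 list genes. Of their 32 windows, 78.1% held TTTGAA and 81.2% held CCAAT, against 12.6% and 37.2% of the 15044 windows of tested genes, and 17.9% and 37.4% of all 32851 windows. A match describes the letters and does not show a site in use.

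A further 14 genes that rose act on chromosomes, spindles or centrioles but were outside the list. They were grouped after their values were seen, so their number is not evidence for a theme. They include 4 subunits of condensin, the complex that compacts mitotic chromosomes. Ncapg was at 18, 27.3 and 27.1 CPM in Il10KO and 9.06, 9.62 and 11.8 CPM in WT, a log2 fold change of 1.25 ± 0.18 (SE; edgeR adjusted p = 0.0394). Ncaph, Smc2 and Smc4 rose by 0.95, 0.88 and 0.72 on the log2 scale. The kinetochore genes Knl1 and Mis12 rose by 1.13 and 0.70. Cep55, needed for the final cut between daughter cells, had 12.4, 14.1 and 17.5 CPM in Il10KO and 5.38, 7.17 and 7.36 CPM in WT. The spindle genes Gtse1, Tacc3 and Ckap2 rose by 1.13, 0.99 and 0.97. Ercc6l, a helicase of anaphase DNA bridges, the centriole gene Cep76, the replication kinase subunit Dbf4 and the DNA topoisomerase Top1 rose by 0.97, 0.85, 0.89 and 0.63. Across the 14 genes, adjusted p ranged between 0.0394 and 0.045.

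**Figure D1:**
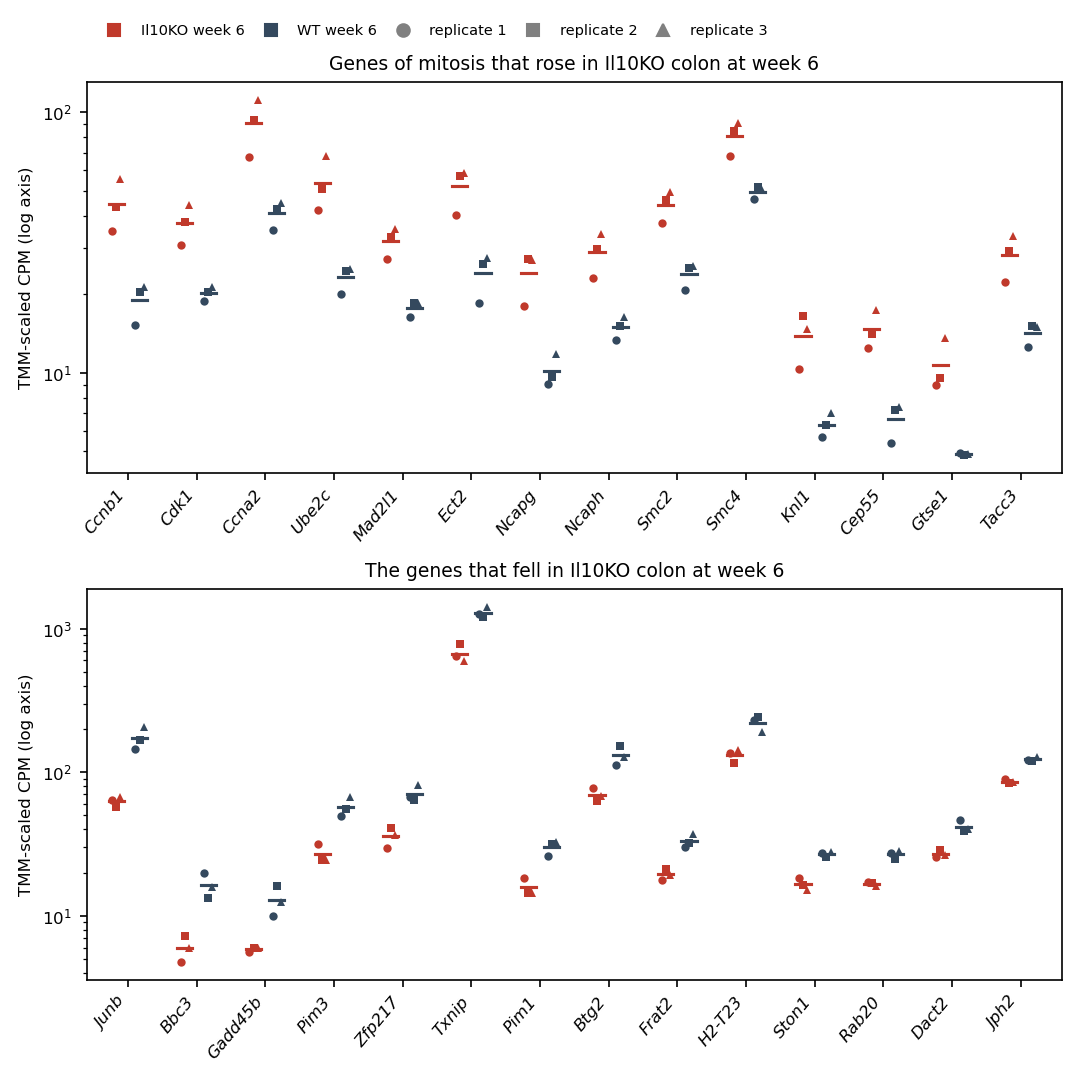
TMM-scaled CPM on a log axis for 14 genes of mitosis that rose (upper panel) and the 14 genes that fell (lower panel) in Il10KO colon at week 6. Points are single libraries (circle, square and triangle for replicates 1, 2 and 3), bars are group means, and for each gene the Il10KO libraries (red) stand left of the WT libraries (dark) without overlap.

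Genes of DNA synthesis had values in the same direction with a smaller median. All 41 members of a DNA replication list were tested and had positive log2 fold changes, 28 of them at an unadjusted p under 0.05, with a median of 0.39. None passed the adjusted test, by edgeR on all genes. Over all genes tested, 10.5% had higher and 9.42% had lower values at an unadjusted p under 0.05. That also applies to the counts below. Rrm1, the large subunit of ribonucleotide reductase, had 73.4, 94.7 and 104 CPM in Il10KO and 57.2, 61.8 and 62.4 CPM in WT, a log2 fold change of 0.58 ± 0.13 (SE; edgeR adjusted p = 0.0742). Cdc45, a part of the replicative helicase, had a log2 fold change of 0.84 ± 0.23 (edgeR adjusted p = 0.109). Of 22 DNA repair genes, 21 were positive and 15 reached an unadjusted p under 0.05, with a median of 0.58 and none called by edgeR. Without Il10KO replicate 3 or WT replicate 3 the higher ones of DNA repair numbered 7 and 9. Among 22 G1/S regulators, 7 had higher and 3 had lower values at that level, and 3 had higher values without WT replicate 3. Cyclin E1, encoded by Ccne1, was at 5.23, 5.51 and 6.26 CPM in Il10KO and 3.01, 3.25 and 2.26 CPM in WT (log2 fold change 1.00 ± 0.20, edgeR adjusted p = 0.0618). Cdkn1a, the p21 inhibitor of cyclin-dependent kinases, was at 217, 182 and 213 CPM in Il10KO and 342, 265 and 286 CPM in WT (log2 fold change -0.55 ± 0.12, edgeR adjusted p = 0.0717). Without Il10KO replicate 3 the replication median was 0.25 with 10 genes at an unadjusted p under 0.05, and without Il10KO replicate 1 it was 0.48 with 32.

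Kpna2, which encodes an importin that carries proteins into the nucleus, rose together with the gene model Gm10184. Gm10184 was at 105, 140 and 128 CPM in Il10KO and 38.5, 53.1 and 46.0 CPM in WT, a log2 fold change of 1.44 ± 0.14 (SE; edgeR adjusted p = 0.0144). Kpna2 was at 4.54, 3.47 and 3.85 CPM in Il10KO and 0.744, 0.736 and 1.13 CPM in WT, a log2 fold change of 2.18 ± 0.27. The transcripts of Gm10184 share 95.8% of their 31-base words with those of Kpna2, so the split of reads between the 2 is uncertain. Their sum was 109, 144 and 132 CPM in Il10KO and 39.2, 53.9 and 47.1 CPM in WT.

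A set of genes of gut epithelium also rose, grouped here after their values were seen. Ap1m2 encodes the epithelial subunit of the adaptor that sorts cargo to the basolateral membrane. It was at 65.9, 72.5 and 129 CPM in Il10KO and 20.1, 18.1 and 19.3 CPM in WT, a log2 fold change of 2.22 ± 0.23 (SE; edgeR adjusted p = 0.0144). The WT libraries were close together and Il10KO replicate 3 was the highest. Mgat4c, a glycosyltransferase of N-glycan branching, had 61.0, 50.4 and 62.8 CPM in Il10KO and 25.9, 30.0 and 25.9 CPM in WT, a log2 fold change of 1.09 ± 0.11 (adjusted p = 0.0144). Abcg5, which forms a sterol exporter with Abcg8, had 31.7, 39.6 and 32.3 CPM in Il10KO and 16.1, 18 and 17.2 CPM in WT, a log2 fold change of 1.01 ± 0.12 (adjusted p = 0.0258). Ly6m, a member of the Ly6 family of surface proteins, had 24.7, 63.4 and 33.4 CPM in Il10KO and 10.5, 11.9 and 10.7 CPM in WT. The same direction held for Tph1, the rate-limiting enzyme of serotonin synthesis in enterochromaffin cells, with 27.2, 44.2 and 31 CPM in Il10KO and 17.9, 16 and 16.9 CPM in WT. It was the 1 called among 18 tested enteroendocrine genes. Of these, 11 were positive and 7 negative, with a median log2 fold change of 0.04. At an unadjusted p under 0.05, 2 had higher and 1 had lower values, against 10.5% and 9.42% of all genes tested. The hormone gene Pyy had a log2 fold change of -0.395 (edgeR adjusted p = 0.0773). Smaller rises were seen for the water channel gene Aqp4 (log2 fold change 0.87 ± 0.14), for Clca3b of the chloride channel regulator family (0.91 ± 0.15) and for Phgr1 (0.55 ± 0.08). Ap1m2 was called in 4 of the 6 fits that left out a library, all but those without WT replicate 1 or 3.

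Among the other rises were C2cd4a, at 3.74, 3.54 and 4.81 CPM in Il10KO and 0.947, 1.29 and 1.01 CPM in WT, and Kbtbd8, an adaptor of a ubiquitin ligase, at 8.49, 6.47 and 7.07 CPM in Il10KO and 2.33, 3.1 and 2.37 CPM in WT. Commd1b was at 15.8, 21.9 and 15.8 CPM in Il10KO and 2.43, 5.46 and 5.34 CPM in WT, the lowest of them in WT replicate 1. Shisa7, a receptor-associated membrane protein gene of neurons, was low in both groups, at 1.35, 1.61 and 2.33 CPM in Il10KO and 0.372, 0.337 and 0.119 CPM in WT. The kinase gene Stk17b, the ubiquitin ligase gene Trim59, the chaperonin-like gene Mkks, the Integrator subunit gene Ints8 and the zinc finger gene Zfp638 rose by 0.62 to 0.80 on the log2 scale. From a list of 15 heat shock genes, 2 rose, against 0.332% of all genes tested. Hsph1, a large chaperone of the Hsp110 family, was at 49.3, 48.8 and 51.6 CPM in Il10KO and 32.0, 33.8 and 34.2 CPM in WT, a log2 fold change of 0.58 ± 0.08 (SE; edgeR adjusted p = 0.0394). Chordc1, a partner of Hsp90, rose by 0.74 ± 0.11. The median of that list was 0.20, and 0.14 without WT replicate 1. The remaining genes that rose were 4 variable segments of immunoglobulin genes and 3 gene models that carry no standard symbol.

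Adult haemoglobin genes, transcribed in red blood cell precursors, rose in Il10KO colon. Hba-a2 was at 121, 219 and 78.2 CPM in Il10KO and 29.6, 32.1 and 39.9 CPM in WT, a log2 fold change of 2.04 ± 0.32 (SE; edgeR adjusted p = 0.0394). Hba-a1 had 74.7, 117 and 45.2 CPM in Il10KO and 25, 21.7 and 27.4 CPM in WT, and Hbb-bt had 21.6, 43.9 and 13.4 CPM in Il10KO and 4.46, 4.29 and 6.32 CPM in WT. Their log2 fold changes were 1.68 ± 0.28 and 2.38 ± 0.39. Il10KO replicate 2 was the highest and replicate 3 the lowest of its group for all 3. Hbb-bs, with 178, 367 and 110 CPM in Il10KO and 54.8, 45.7 and 64.3 CPM in WT, did not pass (log2 fold change 1.99 ± 0.37, edgeR adjusted p = 0.0587). Hba-a1 and Hba-a2 share most of their 31-base words, 92.6% of those of Hba-a2, and Hbb-bt shares 59.4% with Hbb-bs, so values of the single genes are uncertain. Globin genes made up 0.0407%, 0.0722% and 0.0249% of all counts in Il10KO and 0.0112%, 0.0105% and 0.0138% in WT. In whole tissue, more cells of a type and more RNA per cell cannot be told apart, and the blood content of the biopsies was not measured.

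Junb, an AP-1 transcription factor of the immediate early class, fell and had the smallest p of all genes. It was at 63.8, 57.3 and 67.6 CPM in Il10KO and 144, 167 and 205 CPM in WT, a log2 fold change of -1.45 ± 0.13 (SE; edgeR adjusted p = 0.0144). The lowest WT value was above every Il10KO value, and the call was kept in 5 of the 6 fits that left out a library, all but that without WT replicate 3. Btg2, an anti-proliferative early response gene, had 77.1, 63.1 and 67.8 CPM in Il10KO and 112, 153 and 128 CPM in WT, a log2 fold change of -0.92 ± 0.13 (edgeR adjusted p = 0.0394). These were the 2 called among 23 tested immediate early genes. In all, 10 of the 23 had lower values at an unadjusted p under 0.05 and none had higher ones, against 9.42% and 10.5% of all genes tested, and the median was -0.31. Without WT replicate 1 the median was -0.47, without Il10KO replicate 2 it was -0.20, and without WT replicate 3 the lower ones numbered 6. Zfp36, whose protein destabilises cytokine mRNAs, had 44.9, 37.8 and 52.9 CPM in Il10KO and 65.4, 78.6 and 88.9 CPM in WT (log2 fold change -0.78 ± 0.15, edgeR adjusted p = 0.0587). Fos had 43.0, 39.7 and 44.7 CPM in Il10KO and 54.3, 97.3 and 154 CPM in WT (log2 fold change -1.26 ± 0.30, edgeR adjusted p = 0.0822). For Fos the spread lay in the WT group, where replicate 1 was the lowest and replicate 3 the highest. Egr1 had 18.6, 13.7 and 15.7 CPM in Il10KO and 14.4, 57.9 and 94.1 CPM in WT, with the same order of WT libraries and groups that overlapped.

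The other genes that fell are given singly, and any likeness between them was seen after their values. Bbc3, which encodes the pro-apoptotic protein PUMA, was at 4.78, 7.26 and 6.01 CPM in Il10KO and 19.8, 13.4 and 15.8 CPM in WT, a log2 fold change of -1.44 ± 0.20 (SE; edgeR adjusted p = 0.0394). Gadd45b, a stress sensor, was at 5.61, 5.94 and 6.01 CPM in Il10KO and 10.0, 16 and 12.4 CPM in WT, a log2 fold change of -1.13 ± 0.18. Pim3 and Pim1 encode related survival kinases. Pim3 had 31.4, 24.4 and 24.4 CPM in Il10KO and 49.4, 55.5 and 66.8 CPM in WT, a log2 fold change of -1.10 ± 0.14 (adjusted p = 0.0329), and Pim1 fell by 0.93. Txnip, the thioredoxin-interacting protein that restrains glucose uptake, was at 640, 776 and 593 CPM in Il10KO and 1257, 1206 and 1415 CPM in WT, a log2 fold change of -0.95 ± 0.12 (adjusted p = 0.0329). It shares 17.2% of its 31-base words with the gene model Gm15441. Larger shares with other genes also occurred, such as 28.1% for Mkks, 27.8% for Ccnb1, 25.8% for H2-T23 and 25.3% for Ube2c. The transcription factor gene Zfp217 was at 29.5, 41.1 and 36.4 CPM in Il10KO and 66.8, 64.0 and 81.7 CPM in WT. The Wnt pathway genes Frat2 and Dact2 fell by 0.77 and 0.63 on the log2 scale. Ston1, an endocytic adaptor, the small GTPase gene Rab20 and the junctional membrane gene of muscle Jph2 fell by 0.70, 0.69 and 0.52.

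H2-T23, the gene of the non-classical class I molecule Qa-1, completed the genes that fell. It was at 136, 115 and 142 CPM in Il10KO and 231, 243 and 191 CPM in WT, a log2 fold change of -0.76 ± 0.12 (SE; edgeR adjusted p = 0.0394). Among 16 tested class I genes it was the 1 called. Of the 16, 5 had lower and none higher values at an unadjusted p under 0.05, against 9.42% and 10.5% of all genes tested. Without Il10KO replicate 2 the lower ones numbered 3. H2-T22 had 42.8, 36.7 and 40.3 CPM in Il10KO and 61.3, 66.8 and 51.4 CPM in WT (log2 fold change -0.58 ± 0.11, edgeR adjusted p = 0.0596).

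**Figure D2:**
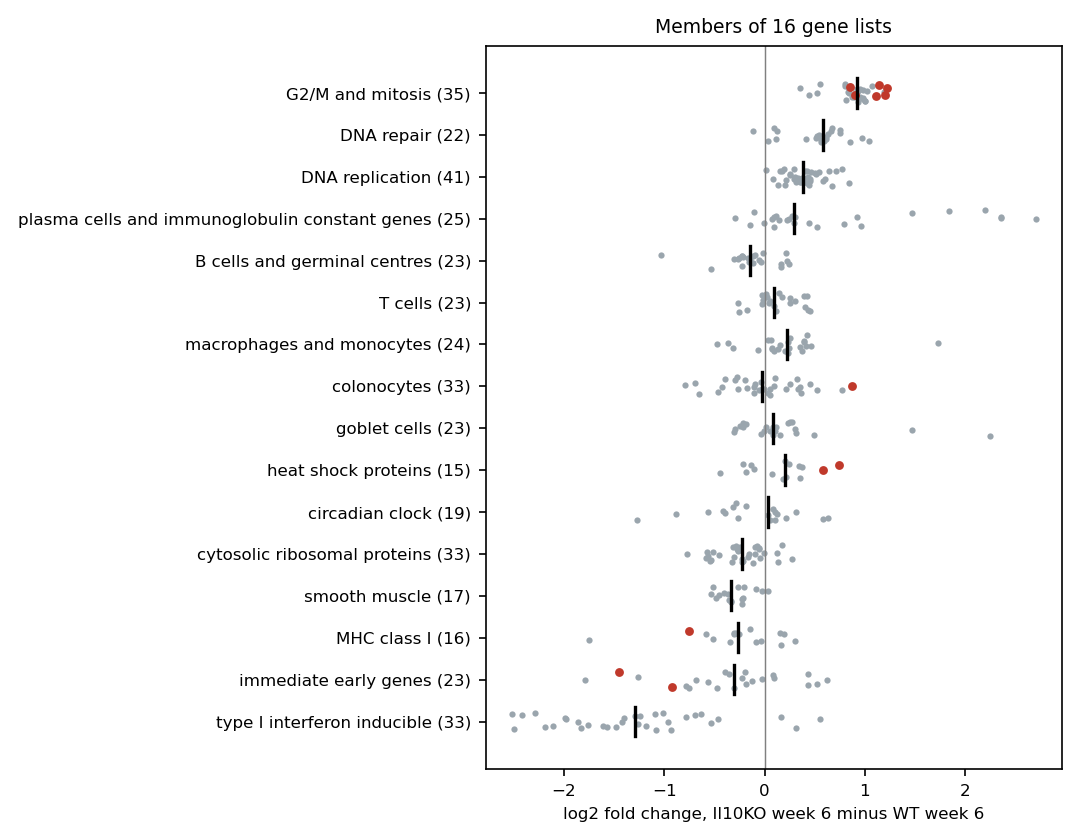
Log2 fold change, Il10KO week 6 minus WT week 6, of every tested member of 16 gene lists, with the number tested in brackets. Grey points are members that did not pass the adjusted test, red points are members that did, and the black line is the list median. Medians run between 0.92 for G2/M and mitosis and -1.30 for type I interferon inducible genes.

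Most plasma cell and immunoglobulin constant genes had higher values in Il10KO, with no call among them. Of 25 tested members of a list of plasma cell and immunoglobulin constant genes, 21 were positive. At an unadjusted p under 0.05, 9 had higher and 1 had lower values, against 10.5% and 9.42% of all genes tested. None of the 25 passed the adjusted test by edgeR. The median log2 fold change of these plasma cells and immunoglobulin constant genes was 0.30. It was 0.17 without Il10KO replicate 1 and 0.63 without WT replicate 2. Members with higher values at that level numbered 5 without Il10KO replicate 1, 6 without Il10KO replicate 3, 5 without WT replicate 1, 4 without WT replicate 3 and 12 without WT replicate 2. Igha, the heavy chain of IgA, was at 3141, 1010 and 1149 CPM in Il10KO and 184, 753 and 98.8 CPM in WT (log2 fold change 2.35 ± 0.71, edgeR adjusted p = 0.132). Jchain, which joins IgA monomers, was at 848, 400 and 340 CPM in Il10KO and 63.4, 219 and 28.0 CPM in WT (2.36 ± 0.65, edgeR adjusted p = 0.114). Igkc had 1684, 850 and 629 CPM in Il10KO and 137, 462 and 92.4 CPM in WT, and Iglc1 had 30.9, 7.44 and 31.3 CPM in Il10KO and 2.64, 5.95 and 2.08 CPM in WT. These 4 genes had the smallest p of the list and log2 fold changes far above its median. For each of them every Il10KO library lay above every WT library, and WT replicate 2 was the highest of the WT libraries. Immunoglobulin genes together made up 0.714%, 0.269% and 0.286% of counts in Il10KO and 0.0579%, 0.192% and 0.0418% in WT.

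The variable segments of immunoglobulin genes showed the same direction. Of 72 tested segments 70 were positive. At an unadjusted p under 0.05, 50 had higher and none lower values, against 10.5% and 9.42% of all genes tested. By the adjusted test 4 rose, with log2 fold changes between 2.98 and 4.70, against 0.332% of all genes tested. The median of the 72 segments was 2.27. They were those of 126 segments that passed the filter on low counts. Segments with at least 10 counts numbered 94, 76 and 89 in Il10KO and 42, 74 and 49 in WT. A segment could pass the filter through the Il10KO group alone, so these counts and the median are tilted upward. Segments share sequence, and reads may be split between them. Of 23 tested genes of B cells and germinal centres, none had higher and 2 had lower values at an unadjusted p under 0.05, with a median of -0.15. The lower share was near the 9.42% of all genes tested. Without Il10KO replicate 3 the median was -0.38 and 6 had lower values, and without Il10KO replicate 2 it was -0.02 and none had. The B cell antigen receptor gene Cd79a was at 29.5, 24.1 and 40.2 CPM in Il10KO and 34.7, 43.0 and 32.1 CPM in WT, and IgM heavy chain, Ighm, at 80.4, 69.8 and 111 CPM in Il10KO and 62.2, 102 and 84.2 CPM in WT. For both, the groups overlapped.

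The type I interferon inducible genes had lower values in Il10KO, to a degree that depended on single libraries. Of 33 tested members 20 had lower and none higher values at an unadjusted p under 0.05, against 9.42% and 10.5% of all genes tested. None of the 33 passed the adjusted test by edgeR, and their median log2 fold change was -1.30. Without WT replicate 2 the median was -0.31 and 5 members had lower and 1 had higher values at that level. Members with lower values numbered 7 and 5 without Il10KO replicate 1 or 2, with medians of -1.10 and -1.24. The summed level was 569, 831 and 1294 CPM in Il10KO and 1179, 3836 and 1058 CPM in WT. Irf7, a transcription factor of the interferon response, was at 46.8, 56.2 and 130 CPM in Il10KO and 191, 299 and 136 CPM in WT (log2 fold change -1.42 ± 0.39, edgeR adjusted p = 0.11). Dhx58, a helicase of the RNA-sensing pathway, had 8.59, 10.1 and 19.7 CPM in Il10KO and 23.4, 72.0 and 21.7 CPM in WT. Ifi27l2a was the list member with the smallest p, at 11.1, 7.23 and 8.02 CPM in Il10KO and 18.7, 17.5 and 15.1 CPM in WT (-0.96 ± 0.18, edgeR adjusted p = 0.0584). In that gene WT replicate 2 did not stand apart. The interferon lambda gene Ifnl2 had 8 estimated counts in WT replicate 2 and 0 in the other 5 libraries, and its part in these values was not tested.

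Oas1g, an antiviral oligoadenylate synthetase gene, was at 20.5, 23.3 and 43.3 CPM in Il10KO and 49.7, 90.6 and 44.0 CPM in WT (log2 fold change -1.08 ± 0.32, edgeR adjusted p = 0.131). Its promoter is shown because interferon-induced genes as a class are known for the interferon-stimulated response element, searched here as TTTC, any 2 bases and TTTC again, on both strands and set in capitals. The window is chr5:120887564-120887863 on the minus strand of GRCm38.p6, from RefSeq, with the same extent around the start site as above.
Oas1g: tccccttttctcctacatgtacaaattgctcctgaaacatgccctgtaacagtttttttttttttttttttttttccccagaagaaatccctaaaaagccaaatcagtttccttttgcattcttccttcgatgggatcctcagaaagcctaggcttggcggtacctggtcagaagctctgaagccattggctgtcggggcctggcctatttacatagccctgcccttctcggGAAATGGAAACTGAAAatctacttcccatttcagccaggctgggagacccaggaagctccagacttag
The Oas1g window held 2 matches that overlap. Ifi27l2a, Irf7 and Dhx58 had smaller p within the list, and their promoters are not shown, so Oas1g does not stand for them. Windows were found for 23 of the 33 list genes, and 61.5% of their 26 windows held a match, against 3.21% of the windows of tested genes.

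Of 26 tested interferon gamma inducible genes, 2 had higher and 3 had lower values at an unadjusted p under 0.05, shares near the 10.5% and 9.42% over all genes tested. Their median was -0.34. It became 0.19 without WT replicate 2, with 9 higher and 2 lower, and the lower ones numbered 7 and 6 without WT replicate 1 or 3. Cxcl9, a T cell chemokine, was at 2.08, 4.54 and 3.22 CPM in Il10KO and 0.304, 1.35 and 0.416 CPM in WT (log2 fold change 2.23 ± 0.52, edgeR adjusted p = 0.0814). Ido1, the tryptophan-degrading enzyme, had 0.554, 0.715 and 1.02 CPM in Il10KO and 0.237, 0.398 and 0.327 CPM in WT. Tap2 and Psmb8, of class I antigen processing, had log2 fold changes of -0.60 ± 0.16 and -0.60 ± 0.19 and did not pass the adjusted test.

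**Figure D3:**
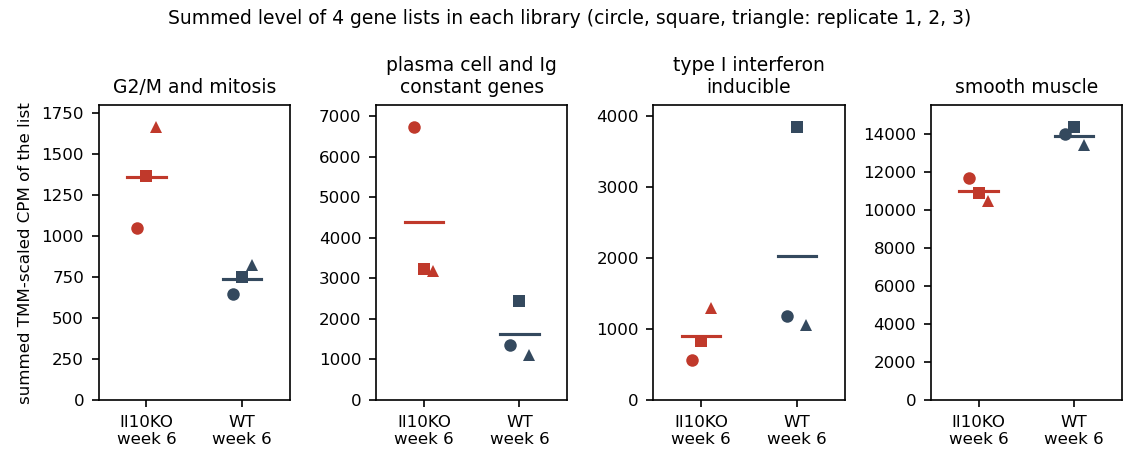
Summed TMM-scaled CPM of the tested members of 4 gene lists in each library, with axes that start at 0. Points are libraries (circle, square and triangle for replicates 1, 2 and 3) and bars are group means, Il10KO left of WT. WT replicate 2 stands apart in the interferon panel at 3836 CPM, against 1179 and 1058 CPM in the other WT libraries.

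Genes of the IL-10 response itself did not pass the adjusted test. Il10ra was at 6.79, 4.76 and 7.49 CPM in Il10KO and 4.02, 8.40 and 6.38 CPM in WT (log2 fold change 0.02 ± 0.27), and Stat3 at 140, 166 and 152 CPM in Il10KO and 146, 160 and 136 CPM in WT (0.05 ± 0.10). Of 14 genes of IL-10 receptor signalling, 1 had higher and 3 had lower values at an unadjusted p under 0.05, against 10.5% and 9.42% of all genes tested. None of the 14 was called by edgeR. The higher one was Tnip3, an inhibitor of NF-kB, at 32.9, 27.4 and 30.4 CPM in Il10KO and 24.3, 19.3 and 23.8 CPM in WT (log2 fold change 0.43 ± 0.12, edgeR adjusted p = 0.122). Of 19 tested inflammatory cytokines and chemokines, none had higher and 3 had lower values at that level. Ccl20, an epithelial chemokine for CCR6-bearing cells, was at 4.33, 4.11 and 4.81 CPM in Il10KO and 8.96, 6.25 and 8.43 CPM in WT (-0.83 ± 0.18, edgeR adjusted p = 0.0764). Of 18 tested epithelial antimicrobial and acute phase genes, 4 had higher and 1 had lower values at that level. They were led by Slpi, a protease inhibitor, at 14.6, 26.2 and 21.9 CPM in Il10KO and 9.27, 12.5 and 7.72 CPM in WT (1.09 ± 0.24, edgeR adjusted p = 0.0742).

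Markers of cell types moved with the groups in part. Over all genes tested, 10.5% had higher and 9.42% had lower values at an unadjusted p under 0.05. The counts below stand beside those shares. Smooth muscle genes had lower values in Il10KO, with 16 of 17 negative, 13 at an unadjusted p under 0.05, a median of -0.33 and none called by edgeR. Their summed level was 11690, 10900 and 10490 CPM in Il10KO and 14000, 14370 and 13420 CPM in WT, without overlap. Myl9, a myosin light chain of smooth muscle, was at 589, 473 and 561 CPM in Il10KO and 821, 786 and 746 CPM in WT (log2 fold change -0.53 ± 0.10, edgeR adjusted p = 0.0596). Without WT replicate 2 the lower ones of the list numbered 8. The list's values stood lower in the group where those of the mitosis genes stood higher. Across the Il10KO libraries the 2 sums ran opposite, with mitosis sums of 1051, 1366 and 1663 CPM. Across the WT libraries they did not, with mitosis sums of 648, 752 and 821 CPM. The part of tissue make-up in the rises of mitosis genes was not tested. Of 20 enteric neuron and glia genes, 16 were negative and 4 positive, and 6 had lower and none higher values at an unadjusted p under 0.05, with a median of -0.22. Without Il10KO replicate 3, WT replicate 2 or WT replicate 3 the lower ones numbered 3, 4 and 2, and without WT replicate 3 the median was -0.14. T cell genes had none of 23 at an unadjusted p under 0.05. The 24 macrophages and monocytes genes had 3 higher and 1 lower at that level, with the higher share near that of all genes tested. Without WT replicate 2 the higher ones of that list numbered 14, and without Il10KO replicate 3, WT replicate 1 or WT replicate 3 there was 1. Of 18 neutrophil genes listed, 7 were tested, and S100a8, S100a9 and Cxcr2 were among those below the filter on low counts. Of the 7, 6 were positive, 2 had higher and none lower values at an unadjusted p under 0.05, the median was 0.42 and none was called by edgeR. Their summed level was 334, 342 and 371 CPM in Il10KO and 260, 272 and 248 CPM in WT, without overlap. Most of it came from Ly6g, at 174, 219 and 196 CPM in Il10KO and 138, 174 and 127 CPM in WT (log2 fold change 0.43 ± 0.13, edgeR adjusted p = 0.139), and Cd177, at 152, 117 and 167 CPM in Il10KO and 118, 91.0 and 115 CPM in WT. Among granule genes, Elane was at 0 counts in all 6 libraries and Camp at 1 or fewer in Il10KO and 3 or fewer in WT. The part of neutrophils in the genes that rose was not tested. Of 33 tested colonocyte genes 15 were positive and 18 negative, 6 had higher and 5 had lower values at an unadjusted p under 0.05, and the median was -0.03. Aqp4 was the 1 called. Guca2a, the hormone guanylin, was at 320, 435 and 444 CPM in Il10KO and 183, 234 and 284 CPM in WT (0.77 ± 0.17, edgeR adjusted p = 0.0764). The proton pump gene Atp12a was at 297, 386 and 316 CPM in Il10KO and 769, 413 and 551 CPM in WT (-0.79 ± 0.20, edgeR adjusted p = 0.0959).

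Of 17 tested crypt stem cells and Wnt targets genes, 4 had higher and 3 had lower values at an unadjusted p under 0.05. Over all genes tested these shares were 10.5% and 9.42%. None of the 17 was called by edgeR. Without WT replicate 1 the higher ones numbered 2. Prom1, a crypt base marker, was at 92.8, 106 and 95.5 CPM in Il10KO and 52.1, 67.9 and 69.9 CPM in WT (log2 fold change 0.63 ± 0.12, edgeR adjusted p = 0.0596). Nkd1, a Wnt feedback inhibitor, was at 35.7, 31.2 and 33.9 CPM in Il10KO and 48.6, 45.1 and 46.5 CPM in WT (-0.48 ± 0.09, edgeR adjusted p = 0.0596). Lgr5, the stem cell receptor, was at 10.7, 8.23 and 11.5 CPM in Il10KO and 5.99, 6.44 and 11.8 CPM in WT, and the groups overlapped.

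Clock genes had values in both directions, with no call by edgeR. Nr1d1, the nuclear receptor that represses Arntl, was at 12.7, 11.7 and 11 CPM in Il10KO and 39.0, 18.8 and 28.2 CPM in WT (log2 fold change -1.28 ± 0.23, edgeR adjusted p = 0.0572). Dbp, a clock output factor, was at 7.59, 6.33 and 6.61 CPM in Il10KO and 14.7, 10.5 and 12.8 CPM in WT (-0.89 ± 0.16, edgeR adjusted p = 0.0587). Per2 was at 16.1, 23.9 and 17.7 CPM in Il10KO and 15.2, 11.4 and 12.1 CPM in WT (0.58 ± 0.18, edgeR adjusted p = 0.133). Of 19 tested clock genes, 3 had higher and 6 had lower values at an unadjusted p under 0.05, against 10.5% and 9.42% of all genes tested. The hour of sampling is not given in the sources used here. Cyp11a1, the enzyme that starts steroid synthesis, was at 1.59, 0.322 and 0.848 CPM in Il10KO and 5.78, 2.82 and 6.44 CPM in WT (-2.43 ± 0.49, edgeR adjusted p = 0.0622).

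Genes near Il10 on chromosome 1 were examined because DNA around a knocked-out gene can stem from another strain. Within 10 Mb of Il10, 119 genes were tested, none rose and 1 fell, Btg2, whose gene lies 3.06 Mb away at chr1:134075170-134079120 (GRCm38). Of these 119 genes 24.4% had an unadjusted p under 0.05, against 20% over all genes tested. Between chromosomes, the share of called genes ran between 0% and 0.835%.

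At later ages the Il10KO libraries were set beside the same 3 WT libraries, which both comparisons share, and no WT mice older than week 6 were sampled. On a scale common to all 18 libraries, Junb averaged 154 CPM in WT at week 6 and, in Il10KO, 55.6, 155, 163, 160 and 148 CPM at weeks 6, 8, 10, 12 and 14. Single Il10KO libraries ran between 50.6 and 59.9 CPM at week 6 and between 47.1 and 228 CPM later. RNA integrity numbers were 9, 6.5 and 5.8 in Il10KO week 14 replicates 1, 2 and 3, where Junb was at 47.1, 191 and 207 CPM. The part of RNA quality in the week 14 values was not tested. Ccnb1 averaged 17 CPM in WT and, in Il10KO, 39.4, 63.7, 78.4, 40.2 and 52.5 CPM at weeks 6, 8, 10, 12 and 14. Mki67 averaged 69.0 CPM in WT and, in Il10KO, 120, 135, 91.1, 52.3 and 41.7 CPM at these ages. Ncaph averaged 13.4 CPM in WT and, in Il10KO, 25.6, 26.0, 22.2, 14.6 and 9.42 CPM. The summed G2/M and mitosis list was at 574 to 735 CPM in WT and 888 to 2439 CPM in the later Il10KO libraries. Single mitosis genes thus differed in their later course. Ap1m2 was at 16.1 to 17.8 CPM in WT, 58.2 to 114 CPM in Il10KO at week 6 and 23.4 to 117 CPM in the 12 later Il10KO libraries. Its value of 23.4 CPM was in week 14 replicate 3. Hba-a2 was at 26.2 to 35.7 CPM in WT, 69.4 to 194 CPM in Il10KO at week 6 and 14.5 to 378 CPM later. Its value of 378 CPM was in week 14 replicate 2. Txnip was at 1080 to 1270 CPM in WT, 526 to 686 CPM in Il10KO at week 6 and 200 to 697 CPM later.

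**Figure D4:**
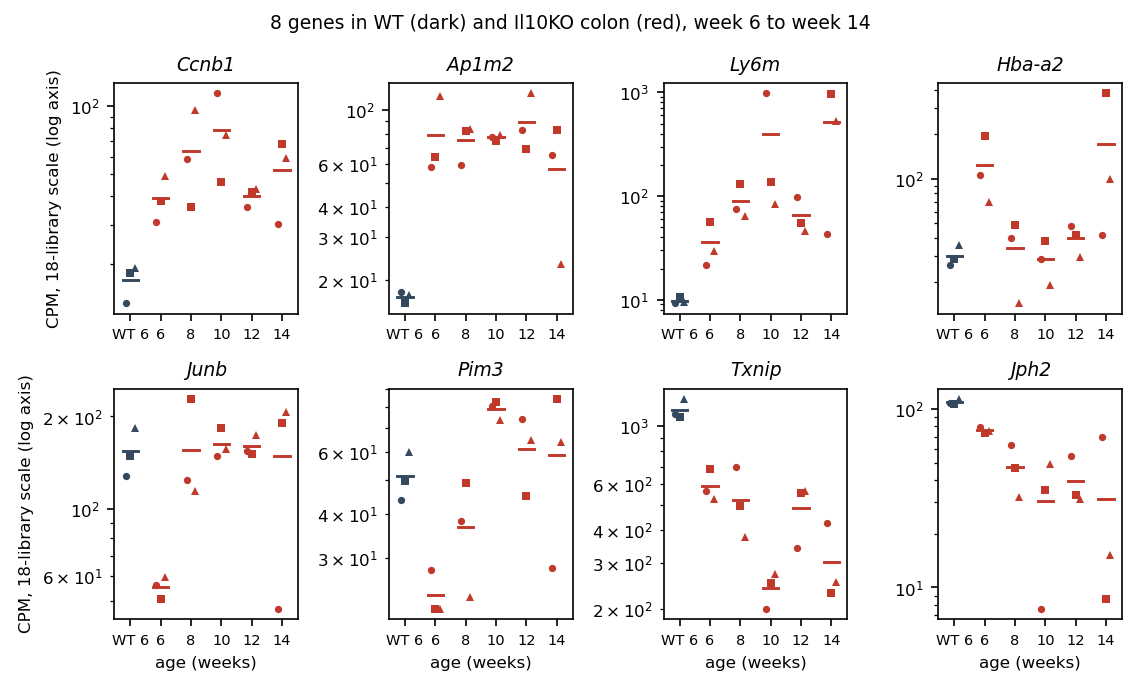
CPM on a scale common to all 18 libraries, on log axes that differ between panels, for 8 genes in WT colon at week 6 (dark, at the left) and Il10KO colon at weeks 6 to 14 (red). Points are libraries and bars are group means of 3. Il10KO week 14 replicates 2 and 3 had RNA integrity numbers of 6.5 and 5.8. Junb and Pim3 are lowest at week 6 of Il10KO by their means, whereas Ccnb1 and Ap1m2 have higher means at every Il10KO age than in WT.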

How the data were processed

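PolyA RNA from distal colon biopsies was sequenced as paired-end reads, per the labels. Per the submitters' processing notes, reads were checked with FastQC and quantified with kallisto on mm10. The versions and the transcript annotation are not given in the sources used here. The deposited gene table holds estimated counts, transcript estimates summed per gene symbol and rounded, which were used as whole numbers. A second deposited table holds TPM, and per-transcript files give, per the file headers, estimated counts, TPM and effective lengths. Per the table's values, the deposited gene table lists genes with a minimum sum over the 18 libraries, which leaves out Il10, so Il10 was read from the transcript files.

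The 6 libraries of week 6 were fitted alone with edgeR 4.0.16 (quasi-likelihood F-test, filterByExpr, TMM, Benjamini-Hochberg adjustment, threshold 0.05), on R 4.3.3. The choice of a fit without the later ages, the gene lists and the named genes was made with earlier results of these data known. Replicates are separate mice, per the series' design text. Depth was 27994123 to 33644962 counts per library. Means were compared between genotypes with no covariate. Alternatives used all 18 libraries, DESeq2 1.42.0, limma 3.58.1, other scalings and filters, log2 TPM with pseudocounts of 1 and 0.1, a replicate block and leaving out each library.

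The rule for genes named was the 15 largest rises and falls among called genes, the 10 smallest p, up to 4 members with the smallest p of each list described, called genes within 10 Mb of Il10, and Il10, Lcn2 and sex-linked genes. The largest changes had to have groups without overlap and a mean log2 CPM of at least 1 in a group, and gene models and variable segments were counted, not named. Other genes, such as the rest of the called genes, Mki67, Egr1, Il10ra and marker genes, were named after their values were seen. Gene positions and shared 31-base words came from GENCODE M21, which placed 98.6% of tested genes. A list of 17 histone symbols matched no row of the table and was not used. The fit was tested on simulated data.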

Additional observations from a re-analysis of the deposited data

How the results depend on the processing

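The count of 51 genes higher and 14 lower in Il10KO depended on how the spread was estimated. It was 0 and 0 in a fit of all 18 libraries (smallest adjusted p 0.363), 1 and 0 with 15 libraries, 528 and 422 by DESeq2, which shared 64 of the 65 calls, and 29 and 12 by limma-voom. A weight per group in voom gave 227 and 127, robust empirical Bayes 106 and 63, and RIN as a covariate 175 and 128. Library size alone gave 30 and 9, transcript sums with a length offset 13 and 6, and limma on log2 TPM 0 and 0 with a pseudocount of 1 (2766 genes at an unadjusted p under 0.05) or 0.1 (2754). Size factors of the RLE kind, TMM without immunoglobulin and mitochondrial genes, no filter and a stricter filter each moved the count by less than 1.5 times. Leaving out 1 library gave 0 to 170 higher and 0 to 44 lower. The replicate block gave 86 and 22, with 44 of the 65 calls shared. The replicate numbers did not pair the samples, since same-numbered libraries had correlations of 0.0101, -0.0785 and -0.0508 in their deviations from the group means.

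Among values of single genes under these settings, 2172 kept direction and side of the threshold, 576 lost the call, 154 gained it and 12 changed sign. The 12 belonged to 5 genes that no setting called. On leaving out 1 library, log2 fold changes ran between -0.511 and 0.547 for Lcn2, -0.219 and 0.283 for Il10ra, -0.0163 and 0.108 for Stat3, -0.144 and 0.251 for Ighm and -0.271 and 0.0758 for Car1. With 3 mice a group and 1 cage for all WT mice, changes below the spread between mice were not detectable.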

Other observations

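Several gene groups of the week 6 comparison had members that differed at an unadjusted p under 0.05 without any call by edgeR at the adjusted threshold. Over all genes tested, 10.5% had higher and 9.42% had lower values in Il10KO at that level, which also applies to the counts below. Of 33 cytosolic ribosomal protein genes, 18 had lower and none higher values in Il10KO, with a median log2 fold change of -0.22. For these cytosolic ribosomal proteins the lower ones numbered 10 without Il10KO replicate 3 or WT replicate 1. Rpl10a, a protein of the large subunit, was at 351, 310 and 326 CPM in Il10KO and 691, 479 and 515 CPM in WT (log2 fold change -0.77 ± 0.14 SE, edgeR adjusted p = 0.0534). Of 25 ribosome biogenesis genes, 7 had higher and none lower values, among them Heatr1, a factor of rRNA transcription and processing, at 23.2, 27.5 and 24.6 CPM in Il10KO and 18.1, 18.4 and 17.9 CPM in WT. Without WT replicate 3 the higher ones of ribosome biogenesis numbered 4. Of 24 genes of hypoxia and glycolysis, 5 had lower and none higher values, and 3 had lower values without Il10KO replicate 2 or WT replicate 1. Aldoa, the glycolytic aldolase, was at 1263, 1382 and 1387 CPM in Il10KO and 1733, 1571 and 1645 CPM in WT.

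Of 23 goblet cells genes, 5 had higher and none lower values, and 2 had higher values without Il10KO replicate 2 or WT replicate 3. Agr2, a disulfide isomerase needed for mucin folding, was at 501, 689 and 658 CPM in Il10KO and 386, 466 and 462 CPM in WT. Of 7 mast cell genes, 3 had higher and 1 had lower values, and 1 was higher without WT replicate 1. Mcpt4, a mast cell protease gene of low level, was at 1.00, 0.680 and 0.954 CPM in Il10KO and 0.304, 0.429 and 0.327 CPM in WT. Hox genes of colon position had 4 lower and no higher values among 20, with Hoxd9 at 3.78, 3.08 and 2.33 CPM in Il10KO and 5.07, 4.57 and 5.73 CPM in WT. Of 15 glucocorticoid-inducible genes, 5 had lower and none higher values, including Zbtb16 at 5.86, 4.51 and 4.84 CPM in Il10KO and 9.37, 8.37 and 7.45 CPM in WT.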
